A study of Homo sapiens with 4 samples.

Results

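Genes of V(D)J recombination and of the joining of broken DNA ends were followed in Nalm-6 cells, an established human pre-B leukemia cell line, by their probes on Agilent single-color expression arrays. The genes were *RAG1*, *RAG2*, *DNTT*, *DCLRE1C*, *XRCC4*, *XRCC5*, *XRCC6*, *LIG4*, *PRKDC* and *NHEJ1*. A probe was taken when the transcript it is annotated to belongs to one of them, which gave 16 probes for all 10 genes, out of 17673 genes with a named probe. Total RNA had been hybridized from wild type cells, from Arp5 KO cells, from Arp8 KO cells and from cells labelled Arp8 overexpression (Arp8 OE), with 1 array each and no stress treatment. Arp5 and Arp8 are actin-related proteins of the INO80 chromatin remodeling complex. Each KO is a cell line in which the gene had been disrupted by homologous recombination, and the cells labelled Arp8 OE were derived from Arp8 KO cells by adding Arp8 under a tetracycline-regulated (Tet-Off) promoter. With 1 array and 1 cell line per genotype there are no replicates, so no test was made, and the effect of a disruption and a difference between cell lines cannot be told apart.

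V(D)J recombination assembles antigen receptor genes in developing lymphocytes. The RAG1 and RAG2 proteins cut beside the gene segments at recombination signal sequences (RSS), and the ends are then joined by the general non-homologous end-joining machinery, which also repairs other breaks in every cell type. Pre-B cells are known to carry both the lymphocyte-specific enzymes and the general machinery. INO80 is known both as a regulator of transcription and as a complex recruited to broken DNA.

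The disrupted genes were examined before the members. The signal, an intensity in arbitrary units after background subtraction by the scanner software, for *ACTR5*, the gene of Arp5, was 1909 units in wild type against 65.3 in Arp5 KO, 1849 in Arp8 KO and 2088 on the array labelled Arp8 OE. After scaling each array to the 75th percentile of its spots, *ACTR5* had a log2 ratio of -4.85 in Arp5 KO over wild type. The probes of *ACTR8*, the gene of Arp8, had log2 ratios to wild type of -0.49 and -0.40 in Arp8 KO. Their signals were 785 and 1654 units there against 1092 and 2149 in wild type. This decrease was far smaller than that of *ACTR5*, so the signal of *ACTR8* does not by itself establish the Arp8 KO label. On the array labelled Arp8 OE the ratios to wild type were -0.71 and -0.23, so the signal went against that label, and the array is named here by its label only. Arp8 KO over that array gave 0.21 and -0.16. Where these probes lie relative to the disrupted or introduced sequence was not examined. *INO80* had log2 ratios to wild type of 0.82 and 0.94 in Arp5 KO, 1.01 and 1.08 in Arp8 KO, and 0.20 and 0.34 on the array labelled Arp8 OE. The cell type was checked on 12 pre-B markers. Of these, 11 had a probe, and their 15 probes were well above background, as marked by the scanner software, on all 4 arrays. *CD24* had no matched probe. The defining T cell genes *CD3D* and *CD3G*, the red cell gene *HBB*, the NK cell genes *KLRD1* and *NCAM1* and the myeloid gene *MPO* were not well above background on any array. Other genes of the T cell list were well above background on all 4 arrays, namely *CD3E* on probes of 17.2 and 44.9 units in wild type, *CD2* at 31.7, *CD8A* at 135 and *LCK* at 1390 units. So were *HBA1* at 91.1 units, 1 of the probes of *ALAS2* at 21.3, *NKG7* at 325 and 5 of the 6 myeloid genes, so the absence of the genes above does not extend to their lists.

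All 16 member probes were well above background on all 4 arrays, which held for 68.4% of all probes. Each had 1 spot per array, and none was saturated or marked as an outlier. For a measure of technical error, probes spotted repeatedly were used. The median SD of their log2 ratio was between 0.0401 and 0.0465 where the dimmest signal was 200 to 1000 units and between 0.0285 and 0.0340 above 1000 units. This error holds no variation between cultures.

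*RAG2*, *LIG4* and *PRKDC* were lower than in wild type on each of the other 3 arrays. *RAG1* was higher in Arp8 KO. *DNTT* was lower on the array labelled Arp8 OE only. The RefSeq promoter table (GRCh38.p14) holds 8 of the 10 members (not *XRCC5* and *PRKDC*), and the 250 bases before the annotated start are shown for *RAG2* and *LIG4*, which were lower together, and for *DNTT*, which was not. The *RAG2* bases are chr11:36598237-36598486 on the minus strand, those of *LIG4*, which has 5 starts in the table, are chr13:108218350-108218599 on the minus strand at its outermost start, and those of *DNTT* are chr10:96304184-96304433 on the plus strand. Capitals mark matches, on either strand, to 6 motifs, of which no pair overlaps in these 3 sequences. The motifs are the TATA box, searched as the letters TATAAA, the CCAAT box, searched as its own name, the GC box with the letters GGGCGG, the E-box of E2A proteins with the letters CAGGTG, the core of Ikaros sites with the letters TGGGAA, and the site of LEF1 and related factors with the letters CTTTGA.
RAG2: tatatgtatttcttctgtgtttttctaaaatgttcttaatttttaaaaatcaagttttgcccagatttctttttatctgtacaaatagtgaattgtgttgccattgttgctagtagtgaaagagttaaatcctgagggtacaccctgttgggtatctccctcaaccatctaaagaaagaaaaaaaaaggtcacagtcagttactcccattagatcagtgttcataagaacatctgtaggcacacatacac
LIG4: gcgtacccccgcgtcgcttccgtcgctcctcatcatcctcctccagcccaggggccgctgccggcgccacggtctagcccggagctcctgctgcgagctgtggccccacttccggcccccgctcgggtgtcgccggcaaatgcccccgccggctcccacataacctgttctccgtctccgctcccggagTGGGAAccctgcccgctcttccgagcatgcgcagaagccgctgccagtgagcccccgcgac
DNTT: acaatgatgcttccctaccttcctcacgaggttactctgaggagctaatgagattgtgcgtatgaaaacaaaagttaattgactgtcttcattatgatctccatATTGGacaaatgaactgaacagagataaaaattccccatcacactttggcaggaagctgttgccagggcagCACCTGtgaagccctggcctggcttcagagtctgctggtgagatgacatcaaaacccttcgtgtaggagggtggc
The *RAG2* sequence holds none of the 6 motifs and has a GC content of 34%. The *LIG4* sequence has a GC content of 72.0% and holds TGGGAA 61 bases before the start. In *DNTT*, with a GC content of 46.4%, CCAAT begins at position -146 and CAGGTG at position -75, both on the opposite strand. Over 27305 promoters of the same length the median GC content was 58.0%, and the motifs, in the order above, were present in 11.1%, 33.0%, 42.3%, 17.5%, 21.1% and 11.4%. The GC box was found in 5 of the 8 members examined, which are *RAG1*, *DCLRE1C*, *XRCC4*, *XRCC6* and *NHEJ1*, and in none of *RAG2*, *LIG4* and *DNTT*. A match is a description of the letters and not evidence of binding.

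*RAG1* and *RAG2*, neighbours on chromosome 11, encode the recombinase. Probe A_23_P64525 of *RAG2* measured 3160 units in wild type against 2244 in Arp5 KO, 1980 in Arp8 KO and 2076 on the array labelled Arp8 OE. Its scaled level was thus 72.1%, 61.9% and 64.7% of wild type, with log2 ratios of -0.47, -0.69 and -0.63, each far larger than the technical SD. Among all probes of similar signal, within 0.5 on the log2 scale, 91.9%, 95.7% and 95.3% had a smaller absolute ratio in these comparisons. Arp8 KO and the array labelled Arp8 OE differed by a log2 ratio of -0.06, and this sign turned under other processing. *RAG1* went the other way. Its probe A_23_P360744 measured 35307 units in wild type against 37149 in Arp5 KO, 45820 in Arp8 KO and 39811 on the array labelled Arp8 OE. The log2 ratios to wild type were 0.10, 0.36 and 0.15. Its probe A_24_P377895 gave 0.16, 0.39 and 0.16. Both placed Arp8 KO highest and wild type lowest. For these probes in Arp8 KO, 87.0% and 73.2% of probes of similar signal had a smaller absolute ratio. The small ratios depended on the processing, since A_23_P360744 in Arp5 KO was at 0.02 after quantile normalization and 0.01 with another background correction (normexp), within the technical SD. On the array labelled Arp8 OE it was at 0.08 and 0.04, and with normexp A_24_P377895 was at 0.08 in Arp5 KO. As a mean of both probes, *RAG1* was at 130% of wild type in Arp8 KO, where *RAG2* was at 61.9%. The 3 comparisons with wild type share the same wild type array.

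**Figure D1:**
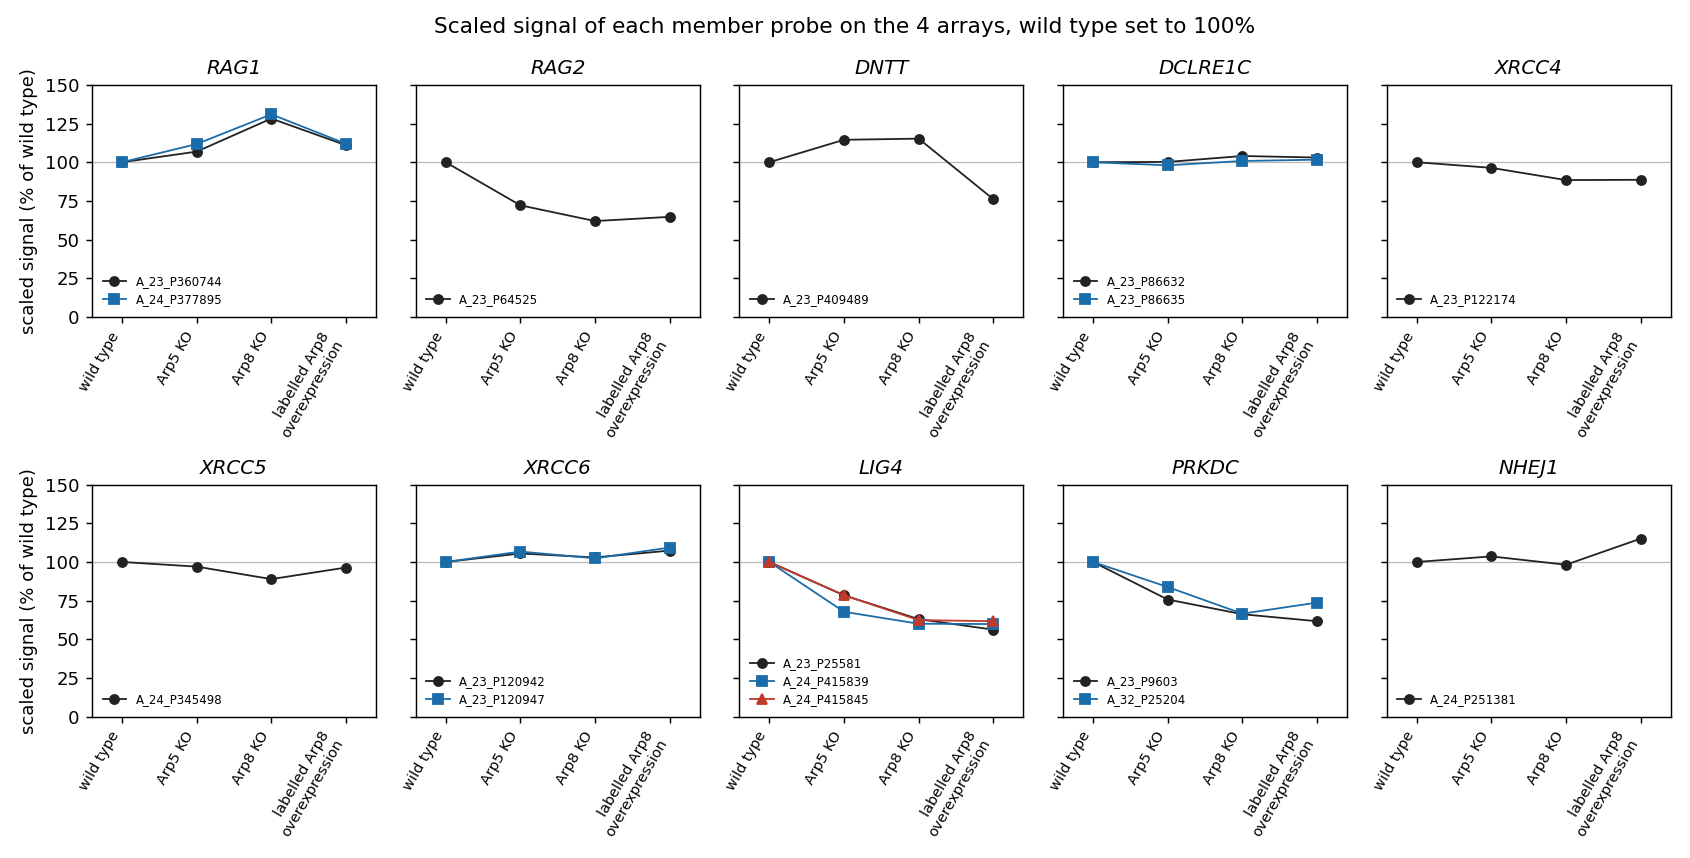
Scaled signal of each member probe (y axis, percent of the same probe in wild type) on the 4 arrays (x axis), with 1 panel per gene and lines joining the values of a probe. *RAG2*, *LIG4* and *PRKDC* lie below 100% on each of the other 3 arrays, *RAG1* lies above it, and *DNTT* is at 76.1% on the array labelled Arp8 OE.

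The genes beside the recombinase genes were compared in their chromosome order, which is *COMMD9*, *PRR5L*, *TRAF6*, *RAG1*, *RAG2* and *IFTAP*. *TRAF6*, next to *RAG1*, had log2 ratios of -0.09 in Arp5 KO, -0.19 in Arp8 KO and -0.17 on the array labelled Arp8 OE. *IFTAP*, whose annotated span overlaps *RAG2*, gave 0.34, 0.39 and 0.82, but at a low signal of 25.2 units in wild type and 45.1 on the array labelled Arp8 OE. *COMMD9* gave 0.23, -0.18 and 0.31. *PRR5L* was well above background in Arp8 KO only, at 11.5 units. Hence none of the measured neighbours had negative ratios of the size seen for *RAG2*.

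**Figure D2:**
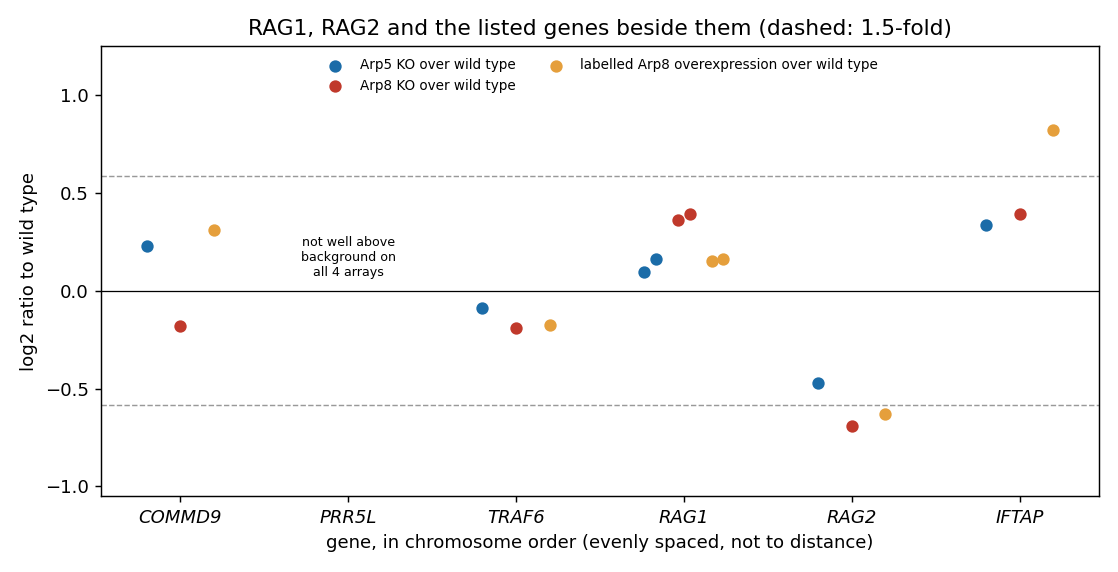
Log2 ratio to wild type (y axis) of *RAG1*, *RAG2* and the listed genes beside them, evenly spaced in chromosome order (x axis), with 1 point per probe and comparison. *RAG2* is between -0.47 and -0.69 in the 3 comparisons, while *RAG1* and *IFTAP* are above 0.

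*DNTT* encodes terminal deoxynucleotidyl transferase, which adds nucleotides without a template at the junctions. Probe A_23_P409489 measured 27229 units in wild type against 30700 in Arp5 KO, 31757 in Arp8 KO and 21052 on the array labelled Arp8 OE. Relative to wild type the log2 ratios were 0.20 in both KO cell lines and -0.39 on the array labelled Arp8 OE. A smaller absolute ratio was found in 68.5% of probes of similar signal in Arp5 KO, 63.5% in Arp8 KO and 90.8% on the array labelled Arp8 OE. In Arp5 KO the ratio was 0.13 after quantile normalization and 0.07 with normexp, and in Arp8 KO it was 0.11 with normexp. Arp8 KO over the array labelled Arp8 OE gave 0.60, and 98.2% of probes of similar signal had a smaller absolute ratio there. This was the only member probe that lay beyond 1.5-fold between these arrays, a comparison that does not use wild type, against 4.42% of all probes that were higher and 4.01% that were lower by this measure. The value is close to the threshold of 0.58.

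*LIG4* encodes the ligase that seals the ends together with XRCC4. Probe A_23_P25581 measured 1211 units in wild type against 935 in Arp5 KO, 772 in Arp8 KO and 691 on the array labelled Arp8 OE. The signal of probe A_24_P415839 was 330.2, 220.3, 200.6 and 200.8 units on the same arrays, and that of A_24_P415845 was 346, 267, 218 and 217 units. All 3 probes were highest in wild type, and Arp5 KO came next. The log2 ratios to wild type were between -0.56 and -0.35 in Arp5 KO, between -0.74 and -0.67 in Arp8 KO and between -0.83 and -0.70 on the array labelled Arp8 OE. As a mean of its probes *LIG4* was at 74.7%, 61.8% and 59.2% of wild type. In Arp5 KO between 71.8% and 89.0% of probes of similar signal had a smaller absolute ratio. This share was between 89.8% and 92.7% in Arp8 KO and between 88.9% and 96.2% on the array labelled Arp8 OE. Between Arp8 KO and the array labelled Arp8 OE A_24_P415839 and A_24_P415845 had log2 ratios of 0.00 and 0.02, and A_23_P25581 of 0.17. For the former pair these were -0.02 and -0.02 after quantile normalization and 0.06 and -0.12 with normexp.

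The other partners of the ligase moved less. *XRCC4*, whose protein holds the ligase, had log2 ratios to wild type of -0.05, -0.18 and -0.17 in Arp5 KO, in Arp8 KO and on the array labelled Arp8 OE. *NHEJ1*, the gene of XLF, which bridges the ends with XRCC4, gave 0.05, -0.03 and 0.20. With normexp *XRCC4* was at -0.088 in Arp8 KO and -0.097 on the array labelled Arp8 OE. Thus, of the ligation complex, *LIG4* alone passed 1.5-fold.

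*PRKDC* encodes the catalytic subunit of the DNA-dependent protein kinase, which is held at the ends by the Ku heterodimer. Probe A_23_P9603 measured 9487 units in wild type against 7073 in Arp5 KO, 6355 in Arp8 KO and 5945 on the array labelled Arp8 OE. That of A_32_P25204 was 759, 626, 511 and 568 units. Both probes were highest in wild type, and they differed in whether Arp8 KO or the array labelled Arp8 OE was lowest. As a mean of its probes *PRKDC* was at 79.7%, 66.4% and 67.4% of wild type. For A_23_P9603, 91.8%, 95.4% and 97.9% of probes of similar signal had a smaller absolute ratio in these comparisons. For A_32_P25204 the shares were 61.8%, 88.9% and 79.6%. The Ku genes, *XRCC5* and *XRCC6*, moved less, with log2 ratios to wild type between -0.17 and -0.04 for *XRCC5* and between 0.03 and 0.13 for the probes of *XRCC6*. *DCLRE1C*, which encodes Artemis, the nuclease that opens the hairpins left by the recombinase, was between -0.03 and 0.06 on both probes. With normexp *DCLRE1C* ran from -0.090 to 0.146 and *XRCC5* was at -0.25 in Arp8 KO, and after quantile normalization *XRCC5* was at -0.13 on the array labelled Arp8 OE, where it had been at -0.05. The sign of these small ratios turned under other processing for *DCLRE1C*, for *XRCC6*, for *XRCC4* in Arp5 KO and for *NHEJ1* in Arp8 KO.

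**Figure D3:**
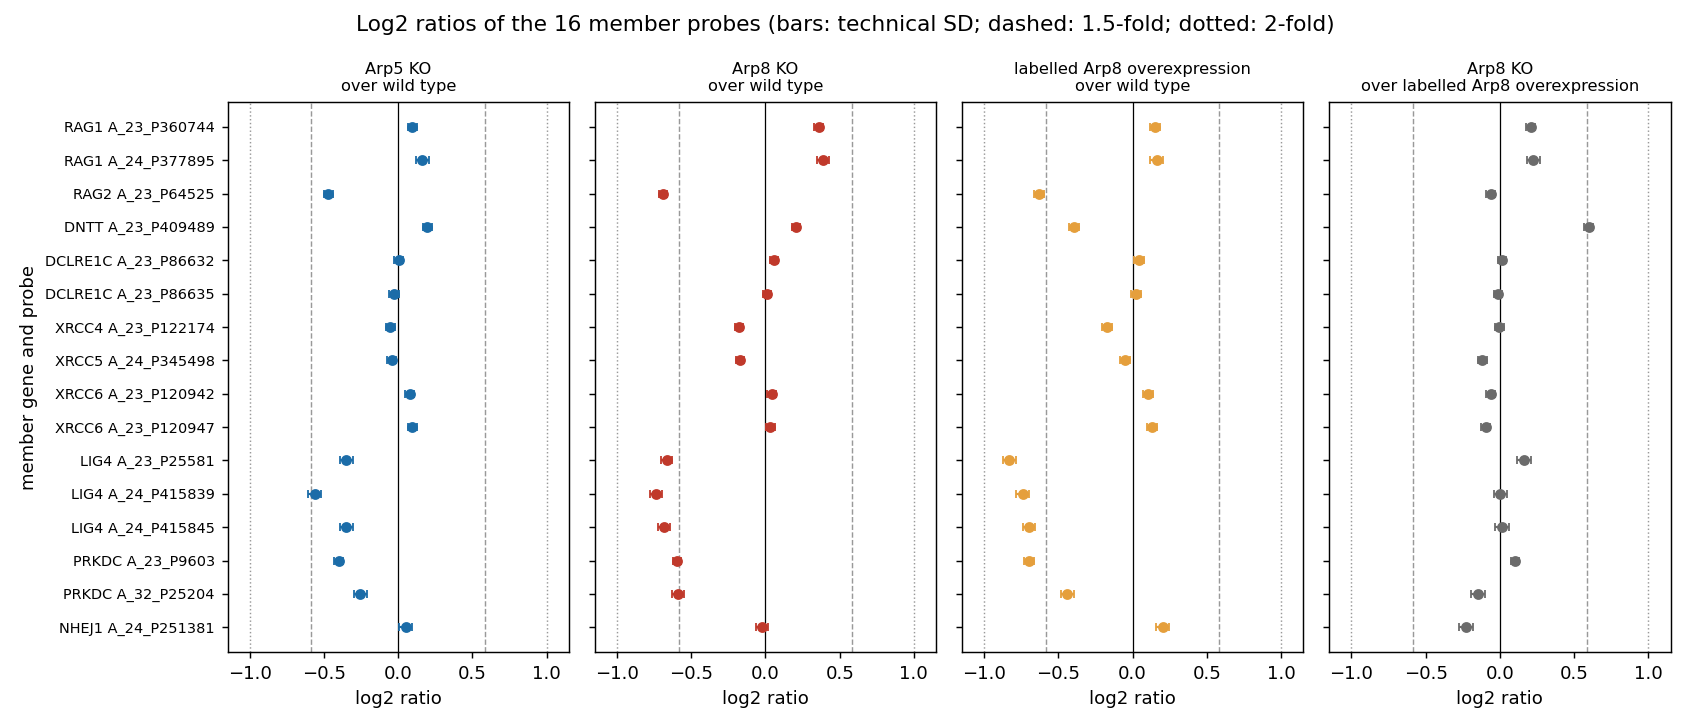
Log2 ratio (x axis) of each of the 16 member probes (y axis) in the 4 comparisons, with bars for the technical SD of repeated spots, dashed lines at 1.5-fold and dotted lines at 2-fold. No point lies beyond 2-fold, and 6 probes in Arp8 KO and 5 on the array labelled Arp8 OE lie beyond 1.5-fold below wild type.

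Counted over the members, no probe was beyond 2-fold in any of the 4 comparisons. Over all probes with the brighter array well above background this share was 2.32% for Arp5 KO over wild type, 3.53% for Arp8 KO over wild type, 4.23% for the array labelled Arp8 OE over wild type and 1.86% for Arp8 KO over that array. At 1.5-fold, 6 of the 16 member probes were lower in Arp8 KO than in wild type, which are all 3 of *LIG4*, both of *PRKDC* and that of *RAG2*, against 6.87% of all probes. Both *PRKDC* probes were close to the threshold, at -0.60 and -0.59 against -0.58 for 1.5-fold, and those of *LIG4* and *RAG2* were between -0.74 and -0.67. With normexp the count was 3, against 3.01% of all probes under that setting. The probes that then missed the threshold were A_24_P415839 and A_24_P415845 of *LIG4*, at -0.575 and -0.568, and A_32_P25204 of *PRKDC*, at -0.570, each just short of it. Without scaling the count was 4, against 6.48% of all probes, and both *PRKDC* probes missed the threshold, at -0.578 and -0.570. On the array labelled Arp8 OE 5 member probes were lower, the same ones without A_32_P25204 of *PRKDC*, against 7.91% of all probes. With normexp it was 4, against 3.20%, and A_24_P415845 of *LIG4* was then at -0.44. In Arp5 KO the count was 0, against 3.87%, and it was 1 after quantile normalization, against 4.58% of all probes under that setting. No member probe was 1.5-fold higher than in wild type, against 5.01% of all probes in Arp5 KO, 5.32% in Arp8 KO and 5.31% on the array labelled Arp8 OE. The 16 probes are not independent, since 3 belong to *LIG4* and a pair to *PRKDC*. Wild type was the highest of the 4 arrays for 8 member probes, which belong to *RAG2*, *XRCC4*, *XRCC5*, *LIG4* and *PRKDC*, against 24.2% of the 27921 probes well above background on all 4 arrays. Arp5 KO was the highest for 0 member probes, against 27.6% of those probes.

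Over all 16 member probes the shifts were small. The member median of the log2 ratio was -0.04 in Arp5 KO, -0.10 in Arp8 KO and -0.11 on the array labelled Arp8 OE, all relative to wild type. Over all probes it was 0.04, 0.01 and 0.01. The member median in Arp5 KO ran from -0.072 to -0.021 under the other settings, with -0.062 after quantile normalization and -0.059 without scaling, and it was 0.065 with the array labelled Arp8 OE as the reference. On the array labelled Arp8 OE it was -0.17 after quantile normalization. For Arp8 KO over that array it was 0.00 for the members and 0.01 for all probes. In RNA from a whole culture, less transcript per cell and fewer cells with the transcript cannot be told apart.

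Genes that act beside the members were examined as lists. *HMGB1* and *HMGB2*, whose proteins bend DNA for the recombinase, had 5 probes with medians of 0.18 in Arp5 KO, -0.09 in Arp8 KO and 0.03 on the array labelled Arp8 OE relative to wild type. The largest ratio there was -0.39 in Arp8 KO for A_23_P99985 of *HMGB1*, whose 4 probes ranged from -0.39 to 0.02 in this comparison. Of 9 end processing and accessory genes, all had a probe well above background on all 4 arrays, and the medians were 0.05, 0.09 and 0.15. *APLF*, which encodes a Ku-binding end-joining factor, was the largest, with 0.72 in Arp8 KO and 0.64 on the array labelled Arp8 OE at signals of 145 units in wild type and 241 in Arp8 KO. Among 10 break sensing genes, with 17 probes, the medians were -0.14, -0.15 and -0.27, and no probe was beyond 1.5-fold in any comparison. *H2AX*, the histone variant phosphorylated at breaks, had the largest ratio of that list, -0.52 for Arp8 KO over the array labelled Arp8 OE. Among 9 genes of alternative end joining, with 11 probes, the medians were 0.18, 0.01 and 0.09, again with no probe beyond 1.5-fold. *PARP2*, a poly(ADP-ribose) polymerase, had the largest ratio, -0.56 in Arp8 KO. These lists had no probe beyond 2-fold. The low values of *LIG4* and *PRKDC* therefore stood beside smaller ratios in most of the genes of neighbouring steps.

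**Figure D4:**
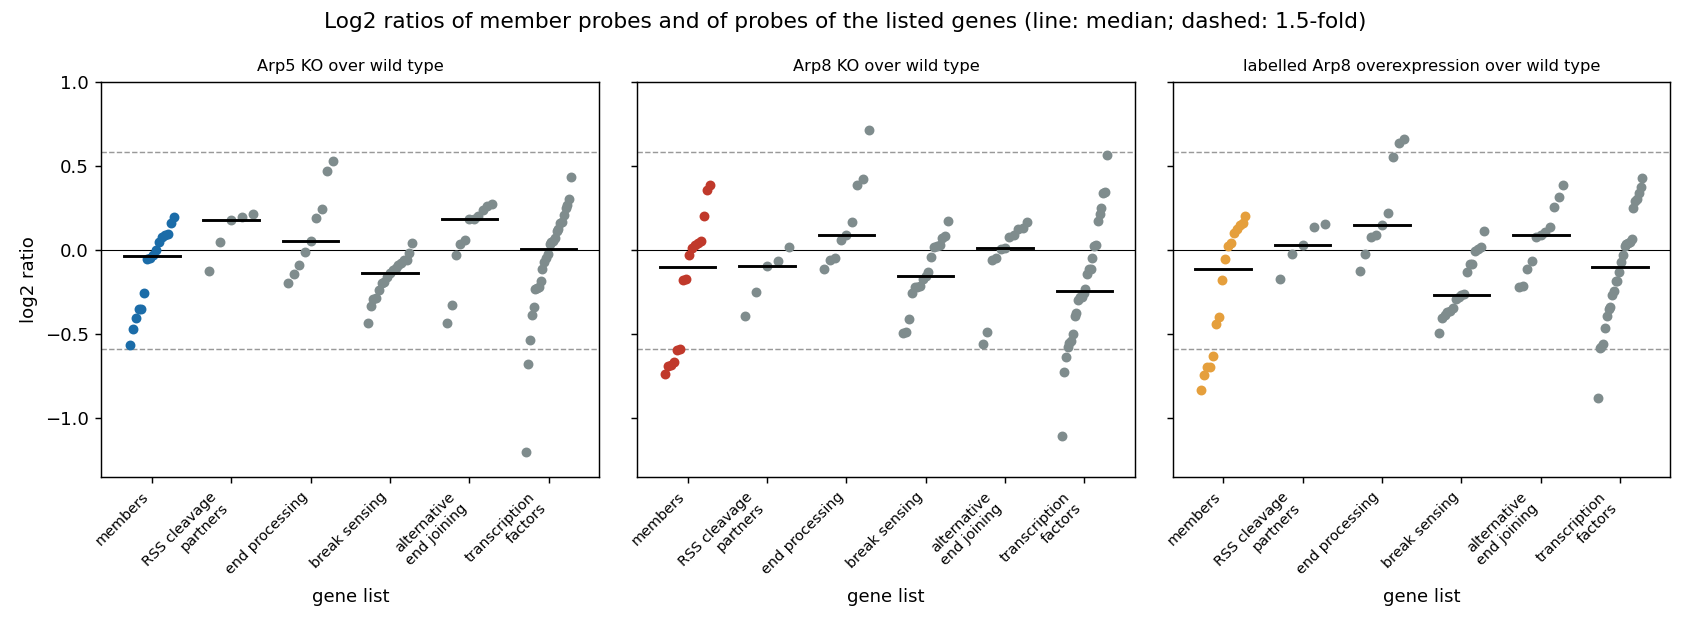
Log2 ratio to wild type (y axis) of member probes and of the probes of 5 gene lists (x axis), with 1 point per probe well above background on all 4 arrays, black lines for medians and dashed lines at 1.5-fold. RSS are the recombination signal sequences. Member probes form a group below -0.58 in the Arp8 KO panel, and the lowest transcription factor probes are *SPI1* at -1.20 in Arp5 KO and *RUNX1* at -1.10 in Arp8 KO.

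Transcription factors known to bind or control the recombinase locus or *DNTT* were also listed, 15 genes with 26 probes, all well above background on all 4 arrays. The medians of the log2 ratio to wild type were 0.01 in Arp5 KO, -0.24 in Arp8 KO and -0.10 on the array labelled Arp8 OE. Beyond 2-fold lay 1 probe in Arp5 KO and 1 in Arp8 KO, against 2.32% and 3.53% of all probes. For 26 probes a count of 1 is near these shares. *SPI1*, the gene of PU.1, measured 201 units in wild type against 86.0 in Arp5 KO, 157 in Arp8 KO and 195 on the array labelled Arp8 OE, with a log2 ratio of -1.20 in Arp5 KO. For *RUNX1* probe A_24_P34155 gave 0.17, -1.10 and -0.56, and A_24_P96403, annotated to another of its transcripts, gave -0.53, -0.55 and -0.34, so the probes differed in Arp5 KO. The following factors were named after their values were seen. *ETS1* was below wild type on all 3 probes in Arp8 KO, between -0.64 and -0.39, and on the array labelled Arp8 OE, between -0.88 and -0.39, and above it in Arp5 KO, between 0.07 and 0.44. *EBF1* gave -0.34, -0.50 and -0.58 on probe A_24_P156501 but 0.03, -0.11 and -0.18 on A_32_P197561. *PAX5* gave 0.21, 0.02 and 0.04. *FOXO1*, an activator of the recombinase genes, was at -0.23 and -0.28 in Arp8 KO on its probes, at -0.11 and -0.22 in Arp5 KO and at 0.07 and -0.03 on the array labelled Arp8 OE. *FOXO3* was at 0.25 and 0.35 in Arp8 KO, at 0.16 and 0.25 in Arp5 KO and at 0.02 and 0.05 on the array labelled Arp8 OE.

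Some markers of myeloid cells were higher on the Arp8 arrays, where *RAG2*, *LIG4* and *PRKDC* were lowest. Of the 6 myeloid genes 5 were well above background on all 4 arrays, and *MPO* on none. Of the 6 probes of these genes, 3 were beyond 2-fold higher than wild type in Arp8 KO, 4 on the array labelled Arp8 OE and 0 in Arp5 KO. Over all probes the share beyond 2-fold, either way, was 3.53%, 4.23% and 2.32% in the same order. The summed signal of the list was 1136 units in wild type against 1515 in Arp5 KO, 4491 in Arp8 KO and 2835 on the array labelled Arp8 OE. Most of this sum came from *CD33* alone. Its probes measured 587 and 317 units in wild type, 2792 and 1338 in Arp8 KO, and 1703 and 795 on the array labelled Arp8 OE. *CD33* had log2 ratios to wild type of 2.23 and 2.06 in Arp8 KO and 1.51 and 1.31 on the array labelled Arp8 OE, and of 0.56 and 0.51 in Arp5 KO. *LYZ* gave 1.35 and 1.31 on the Arp8 arrays at signals of 143 and 140 units, and *CD14* gave 0.02 and -0.14. *CSF1R* gave 0.53 and 1.17, but at low signals of 11.1 units in wild type and 25.3 on the array labelled Arp8 OE. Among the pre-B markers, *CD22* was at -1.78 in Arp8 KO, -0.74 in Arp5 KO and -0.66 on the array labelled Arp8 OE. The median of the 15 pre-B probes was -0.13 in Arp8 KO. The part of these markers in the member values was not tested.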

How the data were processed

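Total RNA of Nalm-6 cells was measured on 4 single-color arrays, 1 per genotype. The authors deposited the output of Agilent Feature Extraction 10.5.1.1 for each array. Its processed signal is a background-subtracted, detrended intensity on a linear scale, not scaled between arrays. Other deposited columns are marks of 0 or 1 for outlier spots, saturation and signal well above background. The authors also deposited a value table of intensity, which equals the processed signal times 1 factor per array, of 0.847, 0.838, 0.825 and 0.807 for wild type, Arp5 KO, Arp8 KO and the array labelled Arp8 OE, with column medians of 127, 128, 123 and 119 units. How the factors were set is not stated.

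The log2 processed signal minus the 75th percentile of its array, over 43376 spots other than controls, was averaged over the spots of a probe without outlier spots. Spots well above background numbered between 30394 and 31420 per array. A ratio needed the brighter array to be well above background, and a dimmer side under the lowest well-above-background signal of its array was set to that signal. The number of arrays limits the precision. Probes were named by their transcript through the RefSeq gene table of GRCh38.p14, which matched 26222 of 41000 probes (64.0%). The files name another build, so the table was used only for names, gene order, annotated spans and the choice of promoter starts. Genes named by rule are the members, the disrupted genes and *INO80*, list genes beyond 2-fold, the largest ratio of each list, and the 3 genes closest to *RAG1*, *RAG2* and *DNTT*. Members and lists were chosen with earlier results of these data known. Some genes that these rules name are not reported here, and other list genes and neighbours were named after their values were seen. Alternatives were other scalings, normexp on the median spot signal with an offset of 50, the deposited value table, outlier spots kept, other filters, thresholds and units. Python 3.11.15, numpy 2.4.6, pandas 2.3.3, matplotlib 3.10.9, R 4.3.3 and limma 3.58.1 were used.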

Additional observations from a re-analysis of the deposited data

How the results depend on the processing

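Outlier spots kept, the dimmer side at its own signal and the deposited value table give the member probes their main ratios by construction, and are not counted here. The number of member probes with wild type highest, at 8, stayed within 1.5 times its value under the alternatives run. At 1.5-fold in place of 2-fold the count of member probes beyond the threshold was 0 in Arp5 KO over wild type, 6 in Arp8 KO over wild type, 5 on the array labelled Arp8 OE over wild type and 1 in Arp8 KO over that array, where it had been 0 at 2-fold in each. Those beyond it in the comparisons with wild type were all lower, against 3.87%, 6.87% and 7.91% of all probes, and the last was higher, against 4.42%. The other scalings and normexp left the count beyond 2-fold at 0. The count of probes 1.5-fold lower was 1 in Arp5 KO after quantile normalization, against 4.58% of all probes, and in Arp8 KO it was 3 with normexp, against 3.01%, and 4 without scaling, against 6.48%, with both *PRKDC* probes short of the threshold. The member median in Arp5 KO was -0.072 with normexp, -0.062 after quantile normalization, -0.059 without scaling and 0.065 with the array labelled Arp8 OE as the reference in place of wild type. On the array labelled Arp8 OE it was -0.17 after quantile normalization. The cause of these shifts was not tested. For *RAG2*, *LIG4* and *PRKDC* the 90 alternative ratios to wild type were below 0. In Arp5 KO they ran from -0.49 to -0.48 for *RAG2*, from -0.59 to -0.26 for *LIG4* and from -0.45 to -0.26 for *PRKDC*. In Arp8 KO they ran from -0.71 to -0.61, from -0.75 to -0.57 and from -0.62 to -0.57, and on the array labelled Arp8 OE from -0.66 to -0.61, from -0.86 to -0.44 and from -0.75 to -0.42. A change of sign was unlikely in advance, since these genes were named for their low ratios and every setting used the same 4 arrays. Of 335 alternative values of single probes and genes, 263 moved by less than the technical SD, 72 by more, and 0 of those beyond 1.5-fold changed sign. The counts at 1.5-fold lower, the count with wild type highest and the other reference array were added after seeing the data. Ratios of dim probes such as *IFTAP* are limited by their signal over background.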

Other observations

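The named genes whose levels over the 4 arrays were most like those of the lymphocyte-specific members were sought among 19272 named probes well above background on all 4 arrays. Likeness was the root mean square difference of the log2 levels, each centred on its own mean. For *RAG1* the closest were *ST3GAL5* at 0.0084, *TOM1L2* at 0.0125 and *RPUSD1* at 0.0135. For *RAG2* they were *SLC16A7* at 0.0139, *FAM95B1* at 0.0180 and *GLUL* at 0.0268. *SLC16A7* had log2 ratios to wild type of -0.49 in Arp5 KO, -0.73 in Arp8 KO and -0.66 on the array labelled Arp8 OE. For *DNTT* they included *KLF4* at 0.0138 and *ASH1L* at 0.0168, and *KLF4* gave 0.22, 0.20 and -0.40 in the same order. With 4 arrays, close matches among so many probes are a description only.

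Other markers of cell types on the lists also varied. *LCK*, a kinase listed as a T cell marker, had a log2 ratio to wild type of -1.41 in Arp8 KO and of -0.44 on the array labelled Arp8 OE. *PRDM1*, a plasma cell regulator, was at 1.11 in Arp5 KO, at a signal of 44.2 units in wild type and 94.1 in Arp5 KO. The other plasma cell genes on its list were not higher in Arp5 KO. There *MZB1* was at -0.55 and the probes of *SDC1* were at -0.0006 and -0.32, and the list median was -0.16. In Arp8 KO *MZB1* was at -0.98, and on the array labelled Arp8 OE it was at 0.09. *HBA1* and *ALAS2* were the erythroid genes well above background, with a summed list signal between 115 and 122 units over the 4 arrays. *NKG7* was the NK cell gene well above background, at 325 units in wild type, 459 in Arp5 KO, 245 in Arp8 KO and 264 on the array labelled Arp8 OE. These genes were named after their values were seen.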
